A study of Arabidopsis thaliana with 3 samples.

Results

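Whole seedlings of Arabidopsis thaliana that carry skip and were kept in salt were compared with wild-type seedlings that had no salt. The members of the comparison are 2 of the 3 samples of the study, and the genes described are the 15734 of 33278 nuclear gene identifiers that reached 5 FPKM in either sample, out of 33557 identifiers in all. FPKM is the number of sequenced fragments scaled to the length of the transcript and to the size of the library. The skip group was 11-day-old skip seedlings kept for 4 h in MS liquid medium, on which plants are commonly raised, with 200 mM NaCl. The other group was wild-type seedlings of the same age, also for 4 h in MS liquid medium, without added NaCl. A sample from the same study, wild-type seedlings of that age given 200 mM NaCl for 4 h, stands between these groups. Its values are given beside them. Genotype and salt both differ between the compared samples, so their parts in a difference cannot be told apart here. The sources used here give neither the allele of skip nor the ecotype, and no untreated skip sample was analysed here.

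SKIP is a protein of the spliceosome, the machine that removes introns, and in Arabidopsis it also works with the Paf1 complex during transcription of some genes. Plants meet salt with the hormone abscisic acid (ABA): receptors that bind ABA block the clade A PP2C phosphatases, which frees SnRK2 kinases to activate bZIP transcription factors at genes of stress protection. Salt also strains mitochondria and chloroplasts, and signals from these organelles change nuclear genes as well.

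Each group is 1 value per gene into which the authors merged 2 replicates. The differences below therefore have no check by replicates, and neither a test nor a standard deviation is given. Each value is a total for the gene, so a change of splicing at an equal total cannot be seen. A gene is called higher or lower where the log2 ratio of FPKM + 1, salt-treated skip over untreated wild type, is at least 1 in size (2-fold). This is a rule of size. All folds are on that scale, which understates the change of genes with low values. The compared samples stand in separate tables, and the skip values were multiplied by 1.105, the median ratio of the salt-treated wild type values that both tables hold. By an estimate from the low values, 5 FPKM on a transcript of 1 kb stood for 184 fragments in salt-treated skip and 198 in untreated wild type, which bears on counting error only. The transcript of SKIP (AT1G77180) itself had 45.96 FPKM in salt-treated skip, 54.2 in salt-treated wild type and 39.2 in untreated wild type, a log2 ratio of 0.23 between the compared groups. The total of this locus does not mark the mutant, and without the allele it cannot check the label. The label of whole plants was checked with shoot and root transcripts, and both were present: RBCS1A, the small subunit of Rubisco, had 12356 FPKM in salt-treated skip and 12449 FPKM in untreated wild type, and SCR, a root transcription factor, had 15.5 and 16.3 FPKM in the same order. The sum of 5 root markers was 36.3 FPKM in salt-treated skip and 107.4 FPKM in untreated wild type. The check is thus of presence and not of an equal share of root RNA. Markers of seed summed to 0.686 FPKM in salt-treated skip and 4.24 FPKM in untreated wild type. Markers of pollen stayed below 0.1 FPKM in sum in both groups.

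In salt-treated skip, 1647 genes were higher (10.5% of the 15734) and 1663 were lower (10.6%) than in untreated wild type, while 12424 lay within the rule. At 4-fold the counts were 664 higher and 469 lower, and at 16-fold 92 higher and 20 lower. The sides thus differed most at their ends. The median gene had a log2 ratio of -0.06, with quartiles at -0.50 and 0.41. Calls of higher genes were more frequent among abundant transcripts: 7.95% of genes whose larger value was 5 to 20 FPKM, 12.7% at 20 to 100 FPKM and 14.9% from 100 FPKM up. For lower genes the shares were 10.3%, 10.2% and 13.4%. List counts given later stand against the 10.5% and 10.6% of all genes, although list totals also hold members below 5 FPKM.

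**Figure D1:**
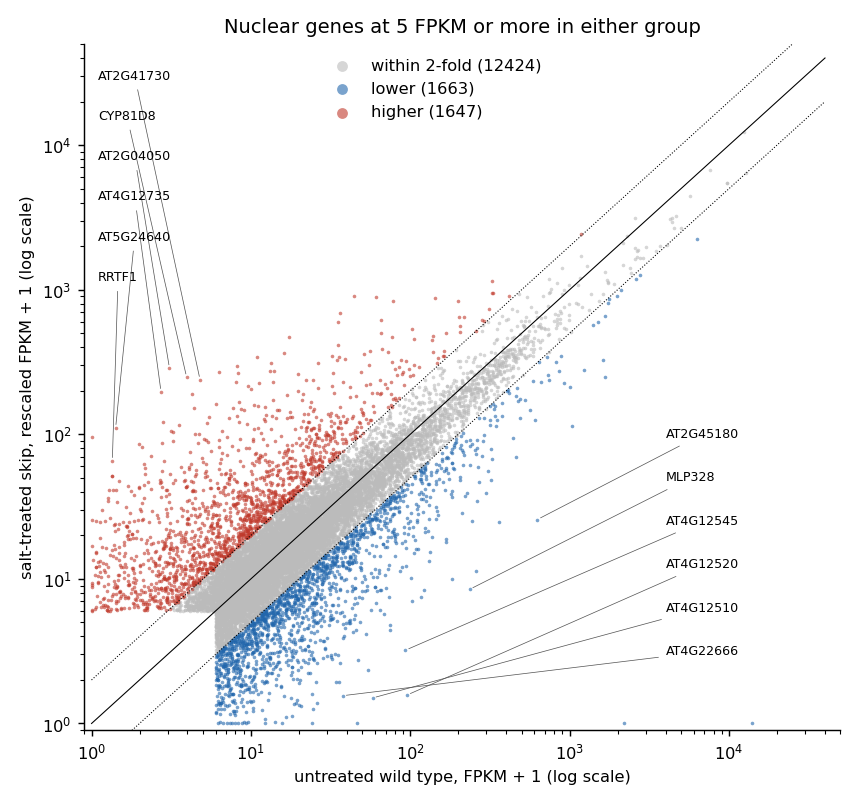
Level of each of the 15734 nuclear genes in salt-treated skip (vertical axis, rescaled FPKM + 1, log scale) against untreated wild type (horizontal axis, FPKM + 1, log scale), 1 merged value per group. The solid line marks equal levels and the dotted lines the 2-fold rule, with 1647 genes above and 1663 below it; the 6 named genes on each side have the largest ratios among genes above 0 in both groups, not rRNA and with a transcript of at least 300 nt.

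The gene with the largest ratio among those above 0 in both groups was AT2G04050, a carrier of the MATE family, which moves small molecules out of the cytosol. It had 285 FPKM in salt-treated skip, 13.2 in salt-treated wild type and 2.08 in untreated wild type, so skip stood far above both wild-type samples (92.6-fold over untreated). The uncharacterized genes AT5G24640 and AT4G12735 had 109 and 195 FPKM in salt-treated skip, 30.5 and 33.1 FPKM in salt-treated wild type, and 0.416 and 1.73 FPKM in untreated wild type. CYP81D8, a cytochrome P450, had 246 FPKM in salt-treated skip, 75.2 in salt-treated wild type and 2.95 in untreated wild type. AT2G18193, a P-loop ATPase, had 267 FPKM in salt-treated skip, 52.6 in salt-treated wild type and 5.29 in untreated wild type. In each of these 5 genes salt-treated wild type lay between the compared groups, with at least a 2-fold step on either side.

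Several other genes of the top 12 were higher still in salt-treated wild type, though by less than 2-fold. HSFA6B, a heat shock transcription factor, had 121 FPKM in salt-treated skip, 212 in salt-treated wild type and 1.8 in untreated wild type. AT3G03341, annotated as a cold-regulated protein, had 190.2 FPKM in salt-treated skip, 249 in salt-treated wild type and 3.25 in untreated wild type. CML37, a calmodulin-like calcium sensor, had 84.5 FPKM in salt-treated skip, 88.03 FPKM in salt-treated wild type and 0.981 FPKM in untreated wild type, a log2 ratio of 5.43 over untreated wild type. RRTF1, a redox-responsive factor of the ERF family, had 64.2 FPKM in salt-treated skip, 118 in salt-treated wild type and 0.35 in untreated wild type, and 59.2% of its 50-base words also occur in another annotated locus, so its value is less certain. AT2G41730, HAI2 and ERF13, the remaining 3 of the top 12, belong to lists described below.

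The list with the highest median was a mitochondrial stress regulon, the nuclear genes that plants switch on when mitochondrial electron transport is disturbed. All 11 of its members were higher, where 10.5% of all genes were. The median log2 ratio was 4.32 over all members, beside -0.06 over all genes. The members were chosen with earlier results of these data known, so this count and the rank of the list are descriptions. For salt-treated wild type over untreated wild type, which shares the untreated sample, the median of the list was 1.89. AOX1A, the alternative oxidase that lets electrons bypass later respiratory complexes, had 600.3 FPKM in salt-treated skip, 140.3 in salt-treated wild type and 34.2 in untreated wild type. AT2G21640, a mitochondrial protein used as a marker of oxidative stress, had 266 FPKM in salt-treated skip, 13.4 in salt-treated wild type and 7.35 in untreated wild type. The wild-type samples thus lay within the 2-fold rule of each other, while salt-treated skip was 31.9-fold above untreated. AT2G41730, annotated as a calcium-binding site protein, had 236 FPKM in salt-treated skip, 40.03 FPKM in salt-treated wild type and 3.798 FPKM in untreated wild type.

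The transcription factors of this regulon, ANAC013 and ANAC017, are NAC proteins anchored in membranes until a mitochondrial signal frees them. ANAC013 was 22.5-fold higher, at 118 FPKM in salt-treated skip, against 4.32 FPKM in untreated wild type. ANAC017 passed the rule narrowly, at 39.3 FPKM in salt-treated skip, against 18.7 FPKM in untreated wild type, a log2 ratio of 1.03, and lay within it, at 0.89, without the factor that joins the tables. BCS1, an ATPase of the outer mitochondrial membrane, was 34.6-fold higher and UGT74E2, which conjugates an auxin, 19.9-fold higher. AOX1D and the external NADH dehydrogenase NDB4 had 24.3 and 9.402 FPKM in salt-treated skip, 2.602 and 0.713 FPKM in salt-treated wild type, and 0.0673 and 0.09401 FPKM in untreated wild type, so they were near 0 without salt. NDB2, of the same enzyme family, showed another pattern: 98.97 FPKM in salt-treated skip, 93.7 in salt-treated wild type and 24.5 in untreated wild type, with nearly the same level in both salt samples.

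Of 6 MATE carriers near DTX1, a cluster to which AT2G04050 belongs, 3 were higher, 2 lay within the rule and 1 did not reach 5 FPKM, with a median of 1.60. AT2G04070 had 42.7 FPKM in salt-treated skip, 1.55 in salt-treated wild type and 0.693 in untreated wild type. AT2G04040 had 19.1 FPKM in salt-treated skip, against 2.34 FPKM in untreated wild type, and 21.5% of its 50-base words are shared with another annotated locus. AT2G04080 and AT2G04100 lay at -0.24 and 0.62 on the log2 scale, so members of 1 cluster differed widely.

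The mitochondrial dysfunction motif is the element that ANAC013 and ANAC017 bind, written here as CTTGNNNNNCAAG or CTTGNNNNNCACG and searched on both strands in the 250 bases before each annotated gene start. It was added to the motifs after the levels had been seen. Of the 11 members of the mitochondrial list, 3 hold it in that window, as does 1 of the 5 MATE genes that reached 5 FPKM, against 0.826% of all 15497 windows of that length. Among the other lists, 2 of 15 clock windows and 1 of 8 windows of SnRK2 kinases and ABA bZIP factors hold it. The windows of AT2G04050, AT2G21640 and NDB2 are shown because these genes differ in how salt-treated wild type compares with skip while all hold the motif, in capitals. The sequences are from RefSeq's TAIR10.1 assembly, whose nuclear chromosomes are those of TAIR10, at chr2:1339469-1339718 (minus strand), chr2:9254128-9254377 (plus strand) and chr4:2572177-2572426 (plus strand), each 5′ to 3′ towards the gene start.
AT2G04050: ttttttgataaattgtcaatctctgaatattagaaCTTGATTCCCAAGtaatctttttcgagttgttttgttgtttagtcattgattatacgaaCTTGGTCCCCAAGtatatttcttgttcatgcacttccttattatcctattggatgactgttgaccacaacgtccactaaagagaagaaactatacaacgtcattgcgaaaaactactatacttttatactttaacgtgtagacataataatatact
AT2G21640: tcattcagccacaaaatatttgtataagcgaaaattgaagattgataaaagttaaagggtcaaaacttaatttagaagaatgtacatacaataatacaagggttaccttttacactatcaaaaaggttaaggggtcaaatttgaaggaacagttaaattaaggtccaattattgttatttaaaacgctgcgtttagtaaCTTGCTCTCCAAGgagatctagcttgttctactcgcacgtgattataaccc
NDB2: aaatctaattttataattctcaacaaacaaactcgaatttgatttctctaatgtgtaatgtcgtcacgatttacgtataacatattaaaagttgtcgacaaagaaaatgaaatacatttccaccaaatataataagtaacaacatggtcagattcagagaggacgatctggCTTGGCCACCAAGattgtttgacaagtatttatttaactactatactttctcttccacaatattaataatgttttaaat
AT2G04050 holds 2 such matches, which begin 215 and 156 bases before the start, and AT2G21640 and NDB2 hold 1 each, at 51 and 79 bases. A match of letters is a description of the window and not a bound site.

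**Figure D2:**
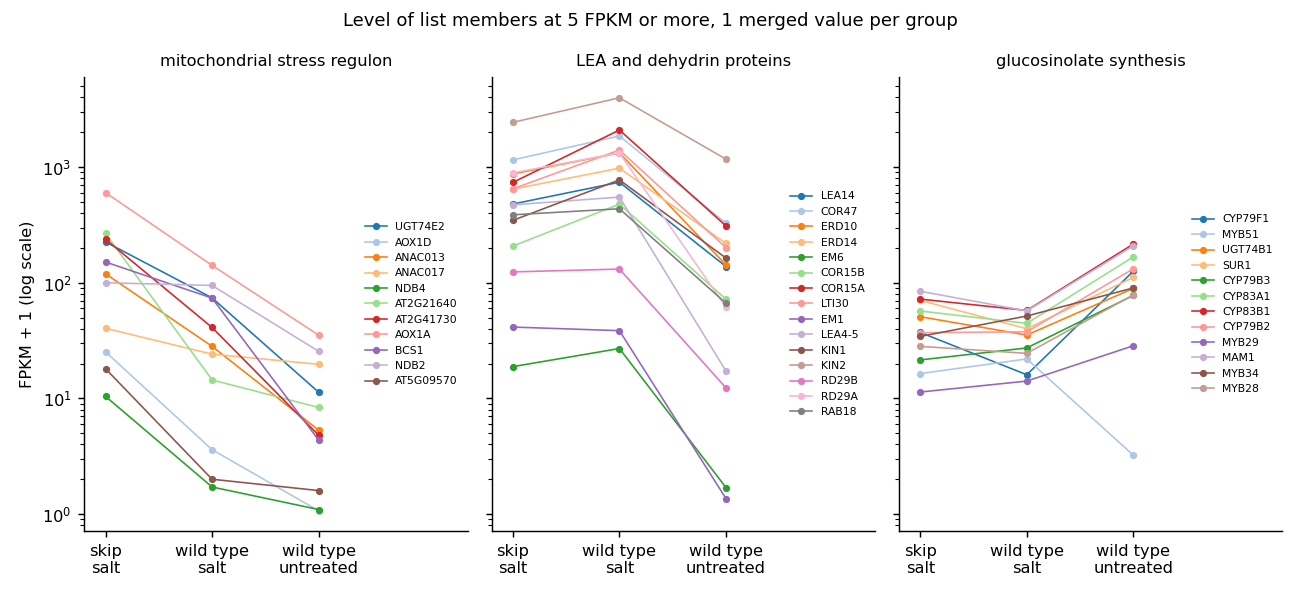
Level of list members that reached 5 FPKM in either compared group (FPKM + 1, log scale) in salt-treated skip, salt-treated wild type and untreated wild type, 1 merged value per group and 1 line per gene. All 11 mitochondrial stress genes are highest in skip, the 15 LEA and dehydrin genes shown are highest in a salt sample, and 9 of the 12 glucosinolate genes are lower in skip than in untreated wild type by the 2-fold rule.

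Among ABA signalling genes, all 9 clade A PP2C phosphatases, which hold the pathway down, were higher, with a median log2 ratio of 3.27. HAI2 had 80.6 FPKM in salt-treated skip, 57.2 in salt-treated wild type and 1.06 in untreated wild type. HAI1 had 297 FPKM in salt-treated skip, 170.1 in salt-treated wild type and 7.18 in untreated wild type. Against salt-treated wild type both lay within the 2-fold rule, at log2 ratios of 0.49 and 0.80. ABI1 had 343 FPKM in salt-treated skip, against 34.7 FPKM in untreated wild type, and PP2CA had 308 FPKM in salt-treated skip, against 25.2 FPKM in untreated wild type. AHG1, a phosphatase best known from seeds, was low throughout, with 6.16 FPKM in salt-treated skip, 1.55 in salt-treated wild type and 0.267 in untreated wild type. The least changed member was HAB2, at 3.18-fold.

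Of 10 PYR and PYL receptors, 5 were lower, 1 was higher, 3 lay within the rule and 1 was below 5 FPKM, with a median of -1.05, or -0.77 with a pseudocount of 5. PYL4 was 7.86-fold lower, with 7.35 FPKM in salt-treated skip, 7.21 in salt-treated wild type and 64.6 in untreated wild type. PYL6 had 0.757 FPKM in salt-treated skip, against 6.51 FPKM in untreated wild type, and PYR1 had 21.5 FPKM in salt-treated skip, against 55.6 FPKM in untreated wild type. The higher member, PYL7, passed narrowly at 35.2 FPKM in salt-treated skip, against 16.99 FPKM in untreated wild type, and 43.8% of its 50-base words occur in another annotated locus. PYL8 and PYL9 had log2 ratios of -0.51 and 0.54. PYL1 lay just within the rule at -0.93.

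Of 8 SnRK2 kinases and ABA bZIP factors, 4 were higher and 4 lay within the rule (median 1.24). ABF3 had 212 FPKM in salt-treated skip, against 40.9 FPKM in untreated wild type, and ABI5, a bZIP factor best known from germination, had 7.08 FPKM in salt-treated skip, against 0.885 FPKM in untreated wild type. OST1, the kinase known from guard cells, had 33 FPKM in salt-treated skip, against 11.2 FPKM in untreated wild type. ABF1 differed from these, with 18.9 FPKM in salt-treated skip, 47.99 in salt-treated wild type and 22.5 in untreated wild type: the skip value was close to untreated. Of the 11 listed genes that make or break down ABA, 6 were higher, 3 lay within the rule and 2 were below 5 FPKM (median 1.21). NCED3, which makes the rate-limiting cut in ABA synthesis, had 42.01 FPKM in salt-treated skip, against 2.91 FPKM in untreated wild type. All 4 CYP707A hydroxylases, which break ABA down, were higher too. CYP707A4 and CYP707A2 had 12.6 and 21.1 FPKM in salt-treated skip, 3.496 and 8.52 FPKM in salt-treated wild type, and 1.66 and 7.03 FPKM in untreated wild type.

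LEA proteins and dehydrins, which protect cells that lose water, were higher in 15 of 16 cases, with a median of 1.81, and XERO1 did not reach 5 FPKM. For salt-treated wild type over untreated wild type the median of the list was 2.74. RD29A, a widely used stress marker, had 890.05 FPKM in salt-treated skip, 1326 in salt-treated wild type and 60.2 in untreated wild type. LEA4-5 had 470.4 FPKM in salt-treated skip, 549 in salt-treated wild type and 16.2 in untreated wild type. The seed-type protein EM1 was the member with the largest ratio, at 40.4 FPKM in salt-treated skip, against 0.362 FPKM in untreated wild type. The abundant cold-regulated genes KIN1 and KIN2 had the smallest ratios that passed, 1.08 and 1.06. COR15A, a chloroplast protein of cold protection, had 736 FPKM in salt-treated skip, 2091 in salt-treated wild type and 309 in untreated wild type, and so reached less than the level of salt-treated wild type. COR15B is uncertain, since 27.3% of its 50-base words occur in another annotated locus.

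Of 8 CBF and DREB factors, which switch on many LEA and COR genes, 7 were higher and DDF2 stayed below 5 FPKM, with a median of 3.17. CBF1 had 28.97 FPKM in salt-treated skip, 49.7 in salt-treated wild type and 0.167 in untreated wild type. DREB2A had 73.8 FPKM in salt-treated skip, 188 in salt-treated wild type and 5.57 in untreated wild type, and CBF3 had 9.97 FPKM in salt-treated skip, 33.2 in salt-treated wild type and 2.87 in untreated wild type. In these 3 genes salt-treated skip stood between salt-treated and untreated wild type. For CBF1 it lay within 2-fold of salt-treated wild type, at a log2 ratio of -0.76. DREB2B had 14.2 FPKM in salt-treated skip, against 1.13 FPKM in untreated wild type, with 68.5% of its words shared with another annotated locus.

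The element that ABA bZIP factors bind has the core ACGTG, and the element of CBF and DREB factors has the core CCGAC. The windows of HAI2 and LEA4-5, a regulator and a protective protein of the ABA response, are shown for the ABRE core, and that of RD29A for the DRE core, with the matches on either strand in capitals. They lie at chr1:2282829-2283078 (minus strand), chr5:2090431-2090680 (minus strand) and chr5:21240467-21240716 (plus strand) of the same assembly.
HAI2: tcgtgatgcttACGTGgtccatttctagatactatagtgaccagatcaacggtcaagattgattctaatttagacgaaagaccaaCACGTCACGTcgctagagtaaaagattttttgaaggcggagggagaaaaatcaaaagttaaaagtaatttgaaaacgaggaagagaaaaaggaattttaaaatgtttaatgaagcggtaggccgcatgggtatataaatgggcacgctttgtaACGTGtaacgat
LEA4-5: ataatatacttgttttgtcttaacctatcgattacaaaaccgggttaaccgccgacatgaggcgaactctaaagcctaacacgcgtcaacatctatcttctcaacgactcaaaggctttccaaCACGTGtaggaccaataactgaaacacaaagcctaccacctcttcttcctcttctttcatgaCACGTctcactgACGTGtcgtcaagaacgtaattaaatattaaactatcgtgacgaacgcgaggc
RD29A: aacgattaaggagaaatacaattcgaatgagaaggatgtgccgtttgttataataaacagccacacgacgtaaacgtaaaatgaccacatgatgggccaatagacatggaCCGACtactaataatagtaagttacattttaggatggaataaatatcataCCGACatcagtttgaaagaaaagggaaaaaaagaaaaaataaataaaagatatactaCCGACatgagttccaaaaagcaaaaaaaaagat
HAI2 and LEA4-5 each hold 4 matches to the ABRE core and RD29A holds 3 to the DRE core. A pair of the LEA4-5 matches is a single palindrome read on both strands. Among list members that reached 5 FPKM, the ABRE core stood in 6 of 9 PP2C windows and 10 of 15 LEA and dehydrin windows. It stood in 2 of 9 receptor windows. Lists that were not higher as a whole varied. The core stood in 10 of 15 clock windows, 8 of 15 windows of listed splicing and Paf1 genes and 6 of 12 glucosinolate windows. Their median log2 ratios were -0.01, 0.05 and -1.43 in that order. In aquaporins it stood in 1 of 18 windows. The core was thus not particular to the higher lists.

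Across all genes the ABRE core was found in 51.0% of the 255 windows of genes higher by 8-fold or more, 39.5% of the 1613 windows of higher genes, 27.3% of the 1613 windows of lower genes and 24.7% of all 15497 windows. The G-box, CACGTG, which contains the ABRE core, was found in 22.0%, 15.1%, 6.39% and 7.98% of the same groups of windows. The DRE core was found in 18.0%, 15.3%, 10.8% and 13.7%. For the W-box TTGACC, the element of WRKY factors, the shares were 22.4%, 16.2%, 12.2% and 12.3%. The evening element AAATATCT, known from clock genes, showed little spread, with 5.88%, 5.83%, 6.76% and 5.15%. For the mitochondrial dysfunction motif the shares were 7.84%, 2.73%, 0.620% and 0.826%. Thus windows of higher genes held every motif but the evening element more often than all windows by more than 1 percentage point. The widest gap in percentage points was that of the ABRE core. Relative to the share of all windows, the mitochondrial dysfunction motif differed most, at 2.73% against 0.826%. That motif was added after the levels had been seen. These shares describe the windows and were not tested.

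**Figure D3:**
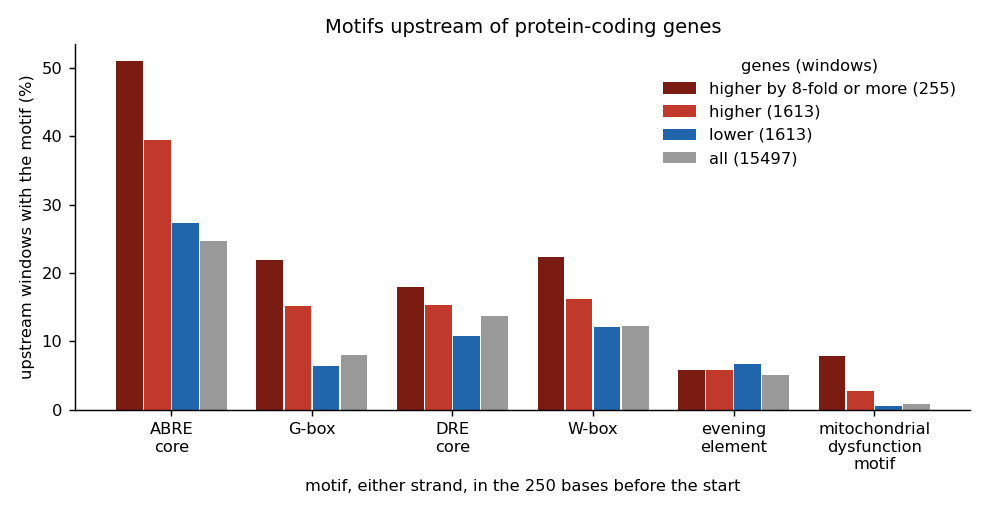
Share of upstream windows (250 bases before the annotated start) that hold each of 6 motifs on either strand, for protein-coding genes higher by 8-fold or more, higher, lower, and all genes. The ABRE core stands in 51.0% of windows of the genes higher by 8-fold or more and in 24.7% of all windows, and the evening element differs least between the groups.

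Most of the listed stress transcription factors were higher. All 10 NAC factors were higher (median 3.02). NAC019 had 116 FPKM in salt-treated skip, 103 in salt-treated wild type and 2.55 in untreated wild type, and RD26, which acts in drought and ABA responses, had 228 FPKM in salt-treated skip, 179 in salt-treated wild type and 12.8 in untreated wild type. ATAF2 and NAC102 were among the most abundant, at 326 and 355 FPKM in salt-treated skip and 33.6 and 50.4 FPKM in untreated wild type. Of 13 WRKY factors, 10 were higher and 3 lay within the rule (median 2.83). WRKY40 had 102 FPKM in salt-treated skip, against 2.24 FPKM in untreated wild type, and WRKY33, a regulator of defence, had 204 FPKM in salt-treated skip, against 8.96 FPKM in untreated wild type. WRKY25 had 71.3 FPKM in salt-treated skip, 29.9 in salt-treated wild type and 6.09 in untreated wild type, so it stood above salt-treated wild type. WRKY70, which acts in salicylate responses, had a log2 ratio of -0.91.

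Of 13 ERF factors, 10 were higher, 2 lay within the rule and ORA59 was below 5 FPKM (median 2.97). ERF13 had 50.9 FPKM in salt-treated skip, against 0.349 FPKM in untreated wild type, and ERF6 had 52.2 FPKM in salt-treated skip, against 2.09 FPKM in untreated wild type. ERF105 is uncertain, since all of its 50-base words occur in another annotated locus. Of 7 zinc finger factors of the ZAT and AZF type, 5 were higher, 1 lay within the rule and 1 was below 5 FPKM (median 2.62). ZAT10 and ZAT12 had 162 and 121 FPKM in salt-treated skip, 162 and 122 FPKM in salt-treated wild type, and 4.997 and 7.42 FPKM in untreated wild type. Both were thus level between the salt samples. ZAT7 had 14.4 FPKM in salt-treated skip, 5.04 in salt-treated wild type and 1.51 in untreated wild type.

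Of 13 heat shock factors and chaperones, 5 were higher, 4 lay within the rule and 4 were below 5 FPKM (median 0.93). After HSFA6B the largest were HSFB2A, at 26.5 FPKM in salt-treated skip, against 3.45 FPKM in untreated wild type, and HSFA2, at 15.96 FPKM in salt-treated skip, against 1.85 FPKM in untreated wild type. The chaperone gene HSP70 (AT3G12580) had 65.8 FPKM in salt-treated skip, against 17.8 FPKM in untreated wild type. HSP101, needed for tolerance of heat, had a log2 ratio of 0.48.

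**Figure D4:**
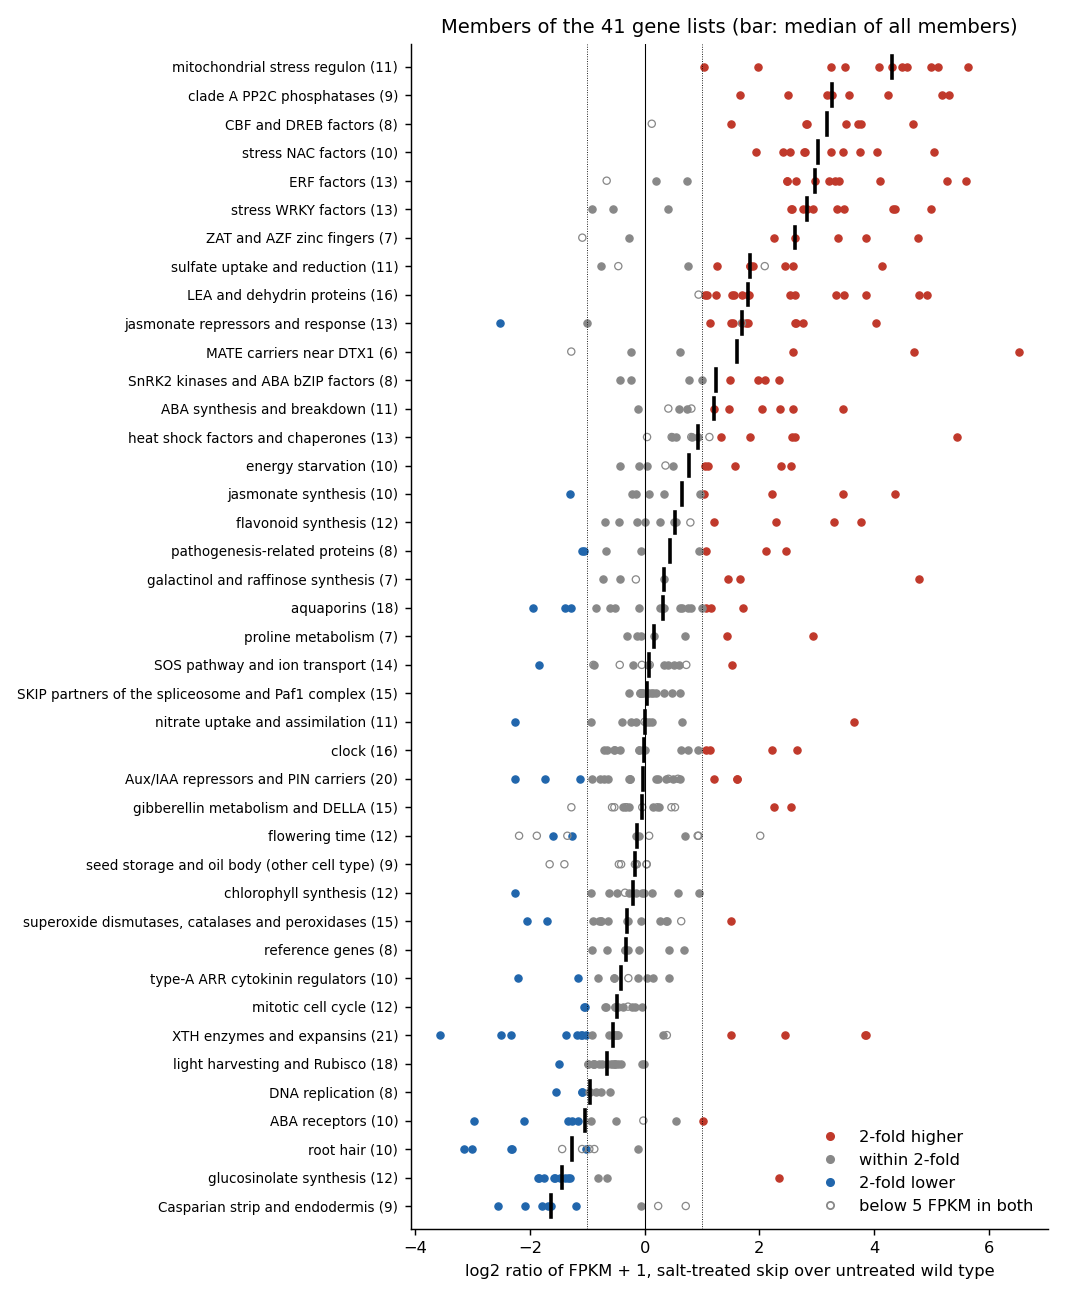
Log2 ratio of FPKM + 1, salt-treated skip over untreated wild type, for each member of the 41 gene lists (points), with the median over all members as a bar and the 2-fold rule as dotted lines. Lists run from the mitochondrial stress regulon, with a median of 4.32, at the top to the Casparian strip and endodermis list, with a median of -1.63, at the bottom. The lists were chosen with earlier results of these data known, so their order is a description. Open points did not reach 5 FPKM in either group.

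Jasmonate repressors were mostly higher, the storage proteins were not, and the genes of jasmonate synthesis were mixed. Of 13 repressors and response genes, 10 were higher, 1 was lower, 1 lay within the rule and 1 was below 5 FPKM (median 1.70). JAZ5 and JAZ1, repressors of the pathway, had 58.7 and 230.2 FPKM in salt-treated skip, 33.4 and 212 FPKM in salt-treated wild type, and 2.67 and 36.7 FPKM in untreated wild type. VSP1, a vegetative storage protein that jasmonate raises, was the lower member, with 45.97 FPKM in salt-treated skip, 245 in salt-treated wild type and 270.3 in untreated wild type. VSP2 lay at the edge of the rule at a log2 ratio of -0.999, with 255 FPKM in salt-treated skip, 1067 in salt-treated wild type and 511 in untreated wild type. The value of MYC2 is uncertain, since 98.5% of its words occur in another annotated locus. Of 10 genes of jasmonate synthesis, 4 were higher, 1 was lower and 5 lay within the rule (median 0.65). The lipoxygenases LOX4 and LOX3 had 37.1 and 42.1 FPKM in salt-treated skip, against 0.856 and 2.93 FPKM in untreated wild type. AOC4, an allene oxide cyclase, was lower, at 18.6 FPKM in salt-treated skip, against 47.2 FPKM in untreated wild type.

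Sulfate and starvation genes also included many higher members. Of 11 genes of sulfate uptake and reduction, 7 were higher, 2 lay within the rule and 2 were below 5 FPKM (median 1.84). SDI1, a gene of sulfur deficiency, had 89.97 FPKM in salt-treated skip, 63.2 in salt-treated wild type and 4.19 in untreated wild type. The reductases APR3 and APR1 had 323 and 218 FPKM in salt-treated skip, against 86.4 and 90.8 FPKM in untreated wild type, while APR2 shares 45.05% of its words with another locus. Of 10 genes of energy starvation, 5 were higher, 4 lay within the rule and 1 was below 5 FPKM (median 0.77). DIN6, an asparagine synthetase, had 18.7 FPKM in salt-treated skip, 35.1 in salt-treated wild type and 5.61 in untreated wild type. Of 11 nitrate genes, 8 lay within the rule and 1 was below 5 FPKM, and the median was 0.00. The higher member was NRT1.8, which removes nitrate from xylem sap, with 37.5 FPKM in salt-treated skip, against 2.06 FPKM in untreated wild type. The lower member was the uptake transporter NRT2.1, with 0.82 FPKM in salt-treated skip, against 7.704 FPKM in untreated wild type.

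Of 12 flavonoid genes, 4 were higher, 7 lay within the rule and 1 was below 5 FPKM (median 0.53). Of all genes at 5 FPKM or more, 10.5% were higher and 10.6% lower. The higher flavonoid genes were anthocyanin regulators and an enzyme of that branch. PAP1, a MYB activator, had 147 FPKM in salt-treated skip, 102 in salt-treated wild type and 14.03 in untreated wild type. PAP2, of the same family, had 36.1 FPKM in salt-treated skip, against 1.71 FPKM in untreated wild type. The bHLH factor TT8 had 13.99 FPKM in salt-treated skip, against 2.07 FPKM in untreated wild type, and the reductase DFR had 103 FPKM in salt-treated skip, against 44.1 FPKM in untreated wild type. TT4, chalcone synthase at the entry of the pathway, had a log2 ratio of -0.45. Of 8 pathogenesis-related genes, 3 were higher, 2 were lower and 3 lay within the rule (median 0.44). PAD3, the last enzyme of camalexin synthesis, had 28.4 FPKM in salt-treated skip, 6.63 in salt-treated wild type and 4.34 in untreated wild type, and PR1 had 5.16 FPKM in salt-treated skip, 0.432 in salt-treated wild type and 0.429 in untreated wild type. PDF1.2A and PR5 were lower, at -1.09 and -1.06 on the log2 scale.

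Transport of ions and water was less uniform, with shares of calls near the background for ions. Of 14 genes of the SOS pathway and ion transport, 1 was higher, 1 was lower, 7 lay within the rule and 5 were below 5 FPKM (median 0.07). NHX1, which moves sodium into the vacuole, was higher, at 80.4 FPKM in salt-treated skip, against 27.4 FPKM in untreated wild type. CBL10, a calcium sensor of the SOS pathway, was lower, with 7.67 FPKM in salt-treated skip, 18.6 in salt-treated wild type and 29.98 in untreated wild type. SOS1, the sodium exporter, had a log2 ratio of 0.400. SOS3 had 5.79 FPKM in salt-treated skip, 16.3 in salt-treated wild type and 5.51 in untreated wild type, so its skip value was near untreated. HKT1 stayed below 1 FPKM in both compared groups.

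Of 18 aquaporins, 3 were higher, 3 were lower and 12 lay within the rule (median 0.33). Among all genes 10.5% were higher and 10.6% lower. PIP1;4 had 449 FPKM in salt-treated skip, against 137 FPKM in untreated wild type. PIP2;4 was lower, at 3.74 FPKM in salt-treated skip, against 17.3 FPKM in untreated wild type, and so was the vacuolar TIP2;1, at 89.9 FPKM in salt-treated skip, against 237 FPKM in untreated wild type. Of 7 proline genes, P5CS1 and P5CS2, which make the first intermediate of proline, were higher and 5 lay within the rule (median 0.17). P5CS1 had 499 FPKM in salt-treated skip, 512 in salt-treated wild type and 64.2 in untreated wild type, level between the salt samples. Of 7 genes of galactinol and raffinose synthesis, 3 were higher, 3 lay within the rule and 1 was below 5 FPKM (median 0.34). GOLS2, a galactinol synthase, had 88.6 FPKM in salt-treated skip, 173 in salt-treated wild type and 2.26 in untreated wild type.

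Many genes of root tissues were lower. Of 9 genes of the Casparian strip, the lignin barrier of the endodermis, 6 were lower, 1 lay within the rule and 2 were below 5 FPKM (median -1.63, or -0.80 with a pseudocount of 5). CASP1 had 7.55 FPKM in salt-treated skip, 8.36 in salt-treated wild type and 35.4 in untreated wild type, and CASP2 had 1.36 FPKM in salt-treated skip, 1.96 in salt-treated wild type and 12.8 in untreated wild type. ESB1, which is needed for the barrier to form, was lower at 6.27 FPKM in salt-treated skip, against 24.1 FPKM in untreated wild type, but 83.3% of its words lie in another annotated locus. SHR, which specifies the endodermis, had 4.35 FPKM in salt-treated skip, against 11.3 FPKM in untreated wild type, while its partner SCR was level. Of 10 root hair genes, 5 were lower, 1 lay within the rule and 4 were below 5 FPKM (median -1.26, or -0.68 with a pseudocount of 5 and -2.27 with 0.1). The cell wall proteins PRP1 and PRP3 had 2.296 and 4.19 FPKM in salt-treated skip, 1.45 and 2.33 FPKM in salt-treated wild type, and 28.4 and 40.6 FPKM in untreated wild type. RHD2, an oxidase of hair growth, had a log2 ratio of -0.12.

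The 5 root markers SCR, SHR, CASP1, PRP3 and MYB36 summed to 36.3 FPKM in salt-treated skip, 37.1 FPKM in salt-treated wild type and 107.4 FPKM in untreated wild type, with none at 0. Of these, 3 were lower in skip, while SCR and MYB36 had log2 ratios of -0.07 and 0.24. The 4 shoot markers summed to 19527 FPKM in salt-treated skip, 17285 FPKM in salt-treated wild type and 21680 FPKM in untreated wild type. In whole seedlings fewer cells of a type and less RNA per cell cannot be told apart, and the part of root tissue in these differences was not tested.

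Among 21 XTH enzymes and expansins, which loosen cell walls, 4 were higher, 8 were lower, 8 lay within the rule and 1 was below 5 FPKM (median -0.55). EXPA8 had 0.503 FPKM in salt-treated skip, against 16.8 FPKM in untreated wild type, and XTH17 had 1.65 FPKM in salt-treated skip, against 14.1 FPKM in untreated wild type. On the other side, XTH22, known as a touch gene, had 157 FPKM in salt-treated skip, against 10.02 FPKM in untreated wild type, and EXPA10 had 299.7 FPKM in salt-treated skip, 445 in salt-treated wild type and 54.4 in untreated wild type. For comparison, 10.5% of all genes were higher and 10.6% lower. Of 20 auxin genes, 3 were higher, 3 were lower, 12 lay within the rule and 2 were below 5 FPKM (median -0.03). The lower ones were carriers: LAX3 and AUX1, which import auxin, had 4.12 and 11.96 FPKM in salt-treated skip and 23.5 and 42.1 FPKM in untreated wild type, and the exporter PIN7 had 23.6 and 52.99 FPKM in the same order. The higher ones were the repressors IAA5, IAA2 and IAA19, at log2 ratios of 1.61, 1.602 and 1.201.

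Of the 12 genes with the largest ratios on the lower side, among those above 0 in both groups, not rRNA and with a transcript of at least 300 nt, 7 are annotated as bifunctional inhibitor or lipid-transfer proteins, which are small and secreted. AT4G12520 had 0.574 FPKM in salt-treated skip, 1.64 in salt-treated wild type and 94.4 in untreated wild type, and AT2G45180 had 24.7 FPKM in salt-treated skip, 47.8 in salt-treated wild type and 626 in untreated wild type. AT4G22666 had 0.557 FPKM in salt-treated skip, against 36.7 FPKM in untreated wild type. AT4G12520, AT4G12510 and AT4G12545 share 47.3%, 51.8% and 48.4% of their words with other loci, and the pair AT5G46900 and AT5G46890 22.5% and 26.8%, so reads may be split between copies. Their levels in salt-treated wild type were also low, below 5 FPKM in these 5 genes.

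The latex-like proteins MLP328 and MLP329 showed separate steps for each sample. MLP328 had 7.46 FPKM in salt-treated skip, 61.4 in salt-treated wild type and 235 in untreated wild type, and MLP329 had 9.06 FPKM in salt-treated skip, 52.3 in salt-treated wild type and 182 in untreated wild type. AT2G05510, a glycine-rich protein, was lower than in both wild-type samples, with 10.4 FPKM in salt-treated skip, 158 in salt-treated wild type and 256 in untreated wild type. RL3, a RAD-like MYB gene, had 0.128 FPKM in salt-treated skip, 2.47 in salt-treated wild type and 17.2 in untreated wild type. AT1G14250, of the GDA1/CD39 phosphatase family, had 3.82 FPKM in salt-treated skip, 29.3 in salt-treated wild type and 73.3 in untreated wild type. AGP13, an arabinogalactan peptide of the cell surface, had 0.9399 FPKM in salt-treated skip, against 32.97 FPKM in untreated wild type, and AT1G14960, of a polyketide cyclase family, 0.392 FPKM in salt-treated skip, against 24.9 FPKM in untreated wild type.

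Glucosinolates are the sulfur-rich defence compounds of this plant family. Of 12 genes of their synthesis, 9 were lower, 1 was higher and 2 lay within the rule (median -1.43). CYP79B2 and CYP79B3, which open the indole branch, had 35.97 and 20.5 FPKM in salt-treated skip, 36.7 and 26.3 FPKM in salt-treated wild type, and 131 and 76.6 FPKM in untreated wild type. CYP79F1, of the aliphatic branch, had 36.1 FPKM in salt-treated skip, 15.01 in salt-treated wild type and 125 in untreated wild type. The activators MYB28, MYB29 and MYB34 were lower, at log2 ratios of -1.48, -1.33 and -1.39. MYB51, an activator of the indole branch, was the higher member, with 15.4 FPKM in salt-treated skip, 20.9 in salt-treated wild type and 2.23 in untreated wild type.

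Of 8 replication genes, 3 were lower and 5 lay within the rule (median -0.96), where 10.6% of all genes were lower. PCNA1, the sliding clamp of DNA polymerase, had 8.89 FPKM in salt-treated skip, 9.096 in salt-treated wild type and 27.8 in untreated wild type, and the helicase subunits MCM3 and MCM6 both had a log2 ratio of -1.096. Of 12 mitotic genes, 2 were lower, 9 lay within the rule and 1 was below 5 FPKM (median -0.49). Of 10 type-A ARR genes, which damp cytokinin signals, 2 were lower, 7 lay within the rule and 1 was below 5 FPKM (median -0.41). ARR3 had 0.878 FPKM in salt-treated skip, against 7.67 FPKM in untreated wild type. Of 18 genes of light harvesting and Rubisco, 1 was lower and 17 lay within the rule (median -0.66), a share of calls below that of all genes, although all 18 ratios were below 0. LHCB1.2, a light-harvesting protein, had 2227 FPKM in salt-treated skip, 3528 in salt-treated wild type and 6270.4 in untreated wild type.

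Of 12 chlorophyll genes, 1 was lower, 10 lay within the rule and 1 was below 5 FPKM (median -0.21), again no larger a share than among all genes. PORB, which needs light to reduce protochlorophyllide, was the lower one, with 125 FPKM in salt-treated skip, 229.7 in salt-treated wild type and 602 in untreated wild type. GUN5, a subunit of magnesium chelatase, pointed the other way with 593 FPKM in salt-treated skip, against 307 FPKM in untreated wild type. Of 15 superoxide dismutases, catalases and peroxidases, 1 was higher, 2 were lower, 11 lay within the rule and 1 was below 5 FPKM (median -0.30). Across all genes the shares were 10.5% higher and 10.6% lower. The copper-zinc dismutases CSD2 and CSD1 had 15.7 and 34.9 FPKM in salt-treated skip, 45.02 and 78.7 FPKM in salt-treated wild type, and 68.4 and 116 FPKM in untreated wild type. The catalase CAT2 had 944 FPKM in salt-treated skip, 362 in salt-treated wild type and 331 in untreated wild type, so skip stood apart from both wild-type samples.

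Of 16 clock genes, 4 were higher, 11 lay within the rule and 1 was below 5 FPKM (median -0.01). Over all genes at 5 FPKM or more, 10.5% were higher and 10.6% lower. The flowering and gibberellin lists described next held only 5 and 6 genes at that level. LHY and CCA1, the morning factors, had 18.6 and 75.1 FPKM in salt-treated skip, 3.88 and 33.3 FPKM in salt-treated wild type, and 2.101 and 15.3 FPKM in untreated wild type. The evening genes TOC1 and GI had log2 ratios of -0.09 and 0.001. PRR9 passed narrowly and shares 29.9% of its words with another locus. Of 12 flowering genes, 2 were lower, 3 lay within the rule and 7 were below 5 FPKM (median -0.13). The repressors FLM and MAF2 had 11.5 and 11.1 FPKM in salt-treated skip, against 36.9 and 28.1 FPKM in untreated wild type. FT, the florigen gene, fell short of 5 FPKM, with 4.82 FPKM in salt-treated skip, 0.634 in salt-treated wild type and 0.441 in untreated wild type. Of 15 gibberellin genes, 2 were higher, 4 lay within the rule and 9 were below 5 FPKM (median -0.04). Both higher ones encode enzymes that inactivate gibberellin: GA2OX2 had 16.1 FPKM in salt-treated skip, against 1.91 FPKM in untreated wild type, and GA2OX6 had 32.3 FPKM in salt-treated skip, against 5.97 FPKM in untreated wild type.

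The genes listed as SKIP partners encode splicing proteins and Paf1 subunits, and whether each product binds SKIP was not tested. None passed the rule. All 15 lay within it (median 0.05), from RS40, a splicing protein, at -0.28 to VIP5, a Paf1 subunit, at 0.62. ELF7, another Paf1 subunit, had 21.4 FPKM in salt-treated skip, against 22.4 FPKM in untreated wild type. None of the 8 reference genes passed either (median -0.32): ACT2, an actin, had a log2 ratio of -0.92, UBQ10 of 0.69 and PP2AA3 of -0.11. All 9 seed storage and oil body genes were below 5 FPKM in both groups.

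Some genes that differed between the wild-type samples stood at the untreated level in salt-treated skip. These were chosen for that pattern, which is therefore a description. COR413IM1, a cold-regulated protein of the chloroplast inner membrane, had 89.8 FPKM in salt-treated skip, 302 in salt-treated wild type and 79.1 in untreated wild type. RD2, a desiccation-responsive gene, had 119 FPKM in salt-treated skip, 261 in salt-treated wild type and 104 in untreated wild type, and the stress-induced gene AT2G15960 had 69.1 FPKM in salt-treated skip, 188 in salt-treated wild type and 69.2 in untreated wild type. AT4G15610 and AT5G60680 showed the same order. In the other direction, the carbonic anhydrase CA2 had 398 FPKM in salt-treated skip, 134 in salt-treated wild type and 381 in untreated wild type. GOX2, a glycolate oxidase of photorespiration, had 216 FPKM in salt-treated skip, 102 in salt-treated wild type and 217 in untreated wild type, and CPN60A, a chloroplast chaperonin, had 209 FPKM in salt-treated skip, 96.2 in salt-treated wild type and 203 in untreated wild type. CP12-2, a regulator of the Calvin cycle, and AT2G25510 were the other genes of this kind.

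Genes past the rule had fewer exons than the rest. Over protein-coding genes, the median number of exons was 3 among higher genes, 3 among lower genes and 5 among those within the rule. Single-exon genes made up 22.4% of higher genes and 26.2% of lower genes, against 9.93% of genes within the rule and 12.9% of all. Of 2002 genes with 1 exon, 18.1% were higher and 21.1% lower. Of 447 genes with 20 or more exons, 2.24% were higher and 3.13% lower. Between these ends the shares fell at each step in the number of exons. The larger of each gene's values had a median of 16.2 FPKM in single-exon genes and 16.1 FPKM in genes with 20 or more exons, with 18.1 to 22.3 FPKM between them. Many of the transcription factors named above, such as ZAT10, ERF13 and CBF1, have 1 exon, and P5CS1 with 20 exons is an exception among the higher genes.

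**Figure D5:**
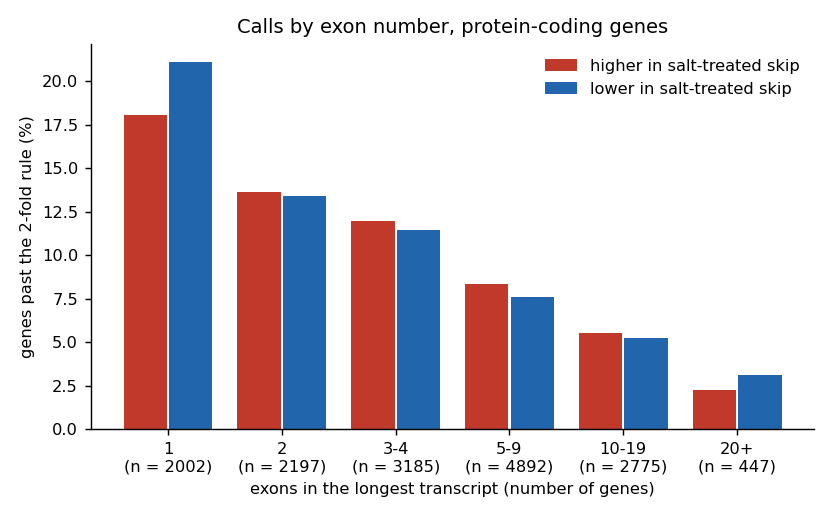
Share of protein-coding genes that were higher or lower in salt-treated skip than in untreated wild type by the 2-fold rule (vertical axis, percent), by the number of exons in the longest annotated transcript (horizontal axis, number of genes in brackets). Both shares fall from single-exon genes, 18.1% higher and 21.1% lower, to genes with 20 or more exons, 2.24% and 3.13%.

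A few loci were listed at 0 in 1 of the groups, which can be a failed estimate, so no fold is given. AT5G03204, an uncharacterized gene with 1 exon, had 95.3 FPKM in salt-treated skip and was listed at 0 in both wild-type samples. In all, 7 higher genes were listed at 0 in untreated wild type and 15 lower genes at 0 in salt-treated skip. Those at 0 in salt-treated skip include the precursor locus MIR400, with 2202 FPKM in untreated wild type, and AT4G37095, with 45.1 FPKM there. They also include the rRNA locus AT2G01010, which shares 94.3% of its words with another rRNA locus.

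At the edge of the rule, AT5G49280, a hydroxyproline-rich protein, lay just inside with 34.9 FPKM in salt-treated skip, against 16.96 FPKM in untreated wild type, and the autophagy-like gene AT4G30790 just outside with 17 FPKM in salt-treated skip, against 8.001 FPKM in untreated wild type. On the lower side AT2G14460 lay just inside with 13.6 FPKM in salt-treated skip, against 28.2 FPKM in untreated wild type, and BIP1, a chaperone of the endoplasmic reticulum, just outside with 96.03 FPKM in salt-treated skip, against 193 FPKM in untreated wild type, where 22.9% of the words of BIP1 occur in a paralog. At the filter on low values, the nuclear pore gene LNO1 entered with 4.95 FPKM in salt-treated skip and 5.004 FPKM in untreated wild type. The proton pump gene HA8 stayed out with 4.31 FPKM in salt-treated skip and 4.999 FPKM in untreated wild type.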

How the data were processed

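RNA of whole seedlings was sequenced in 3 groups. The deposited tables hold 1 FPKM value per gene and group, which the authors made with TopHat, Cufflinks and TAIR10 per the submitters' processing notes, with no versions given. The unit FPKM was inferred from the values and these tools. How the authors merged the replicates, which kit was used and whether reads were counted by strand is not stated in the labels or notes, so overlapping genes cannot be told apart.

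Salt-treated wild type stands in both tables, and its values differ by a constant factor of 1.105 (24822 of 24882 genes within 0.1% of it). Salt-treated skip was multiplied by this factor, and the log2 ratio of FPKM + 1 to untreated wild type was taken for nuclear genes at 5 FPKM or more in either group. A ratio of at least 1 in size counts as a call. The step of the low values gave the estimated fragments. Under the best step, 66.9% of low values in salt-treated skip and 55.4% in untreated wild type fell within 0.15 of whole multiples, where evenly spread values would give 30%, so whole reads were not recovered and no count test was run.

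Genes were named by a rule: the 12 largest ratios per direction among genes above 0 in both groups, not rRNA and with a transcript of at least 300 nt, the 4 largest ratios per list, genes with 2-fold steps on either side of salt-treated wild type, genes back at the untreated level, genes at 0, and genes at the edges. List members outside it were named for their role or after their values were seen. The 41 lists hold 476 loci, with 2 loci in 2 lists. The members and lists were chosen with earlier results of these data known. Names, exons and upstream windows came from RefSeq's TAIR10.1, which matched 15691 of the 15734 genes. The share of a gene's 50-base words found in another annotated gene was computed on both strands, and overlapping loci were counted. It was at least 20% for 29 of the 476 loci. Python 3.11.15, pandas 2.3.3 and numpy 2.4.6 were used, and the joining and calling steps were tested on simulated data.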

Additional observations from a re-analysis of the deposited data

How the results depend on the processing

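Counts of higher and lower genes kept within 1.5 times the main counts of 1647 and 1663 for every alternative tried except 3. With a pseudocount of 5, 1029 genes were lower. The 4-fold rule gave 664 higher and 469 lower genes, and the 1.5-fold rule gave 3006 and 3370; these follow from the rules themselves. Without the factor that joins the tables, 1372 genes were higher and 2055 lower, and KIN1 and KIN2 fell within the rule at 0.94 and 0.91. No list median past the rule changed its direction under the alternatives that change a ratio. The medians are over all members, so a change of the FPKM minimum could not move them. For 466 genes of the lists and the naming rule, 6 alternatives that change a ratio were run: pseudocounts of 0.1 and 5, no joining factor, joining by sums, centring on the median gene and the sum of the within-table ratios. None reversed a called gene. Over these, 2696 values stayed on the same side of the 2-fold rule, 37 moved past it and 63 moved back within it. Of the 41 list medians, 5 dropped below 1 in size with a pseudocount of 5: ABA receptors (-0.77), SnRK2 kinases and bZIP factors (0.95), ABA synthesis and breakdown (0.88), root hair (-0.68) and Casparian strip (-0.80). No paired analysis was possible because each group is 1 merged value, and for the same reason no replicate could be left out. By the estimate from the low values, 5 FPKM on a transcript of 1 kb stood for about 184 to 223 fragments. Whole reads were not recovered, and the estimate bears on counting error only.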

Other observations

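Called genes often lay next to each other on the chromosomes. Of higher protein-coding genes, 20.4% had a higher neighbour, against 12.3% of all genes at 5 FPKM or more, and of lower genes 20.8% had a lower neighbour, against 11.7%. Runs of at least 4 adjacent genes with the same call numbered 3 for higher and 6 for lower genes. A lower run was the cluster for thalianol, a root triterpene: the synthase THAS1 had 5.105 FPKM in salt-treated skip, 11.6 in salt-treated wild type and 63.7 in untreated wild type, and its neighbours CYP708A2, CYP705A5 and AT5G47980 were 12.7-fold, 8.18-fold and 14.9-fold lower in salt-treated skip than in untreated wild type. The root marker sums moved in the same direction, and their part in this run was not tested. Another held nitrile specifier proteins, which steer the breakdown of glucosinolates, and jacalin-related lectins, with PBP1 at 147 FPKM in salt-treated skip, 186 in salt-treated wild type and 566 in untreated wild type. NSP1 of that run, at 133 FPKM in salt-treated skip, against 377 FPKM in untreated wild type, shares 29.9% of its 50-base words with a paralog. The tubulins TUA3 and TUA5 lay in a further run, at -1.403 and -1.31 on the log2 scale, and share 31.96% and 36.2% of their words with other loci, chiefly each other.

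Of the higher runs, 1 held UGT73C glycosyltransferases, which attach sugars to small molecules. DOGT1 had 68.9 FPKM in salt-treated skip, 12.7 in salt-treated wild type and 10.4 in untreated wild type, and AT2G36780 had 20.8 FPKM in salt-treated skip, 16.5 in salt-treated wild type and 2.13 in untreated wild type. UGT73C6 had 34.3 FPKM in salt-treated skip, against 3.06 FPKM in untreated wild type, but 92.1% of its words lie in another annotated locus. Another run held ANAC013 and GBSS1, a starch synthase, with AT1G32880 between them. GBSS1 had 131 FPKM in salt-treated skip, 121 in salt-treated wild type and 34.1 in untreated wild type. The last held JAZ10 and AT5G13210, with 24.6 FPKM in salt-treated skip, 6.58 in salt-treated wild type and 1.07 in untreated wild type. Genes of a run can be tandem copies, and what the members of a run share beyond their place was not tested.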
